A study of Mus musculus with 50 samples.

Results

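The 36 aminoacyl-tRNA synthetase genes were followed here through 50 mammary gland (MG) tumors. They were picked by name from the 37701 genes of the deposited expression table, each name occurring once, and fall into 20 cytosolic genes (no final 2 in the symbol) and 16 mitochondrial genes (final 2). All 36 passed the filter on low values (mean RPKM of at least 0.5 over the 50 tumors) and are among the 16733 genes tested. RPKM is the number of reads per kilobase of gene length, scaled to the size of the library.

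The tumors arose in female p53R270H/+WAPCre mice, which entered the study at 8 weeks of age and were injected under the skin every other day, until a tumor formed, with vehicle, insulin, the insulin analogues glargine or X10, or IGF1 (10 tumors per group, 1 tumor per mouse number). Tumors are named by their labels, and the number is that of the mouse. The titles of 10 tumors read Untreated, while the treatment protocol in the labels names vehicle and no untreated group, so these 10 were taken as the vehicle group, and every comparison with vehicle rests on that reading. All groups, vehicle included, carried the heterozygous p53 mutation, which the Cre enzyme under the whey acidic protein promoter switches on in the mammary gland. Tumors were taken at 1 cm3 and 24 h after the last injection, and the study chose tumors with features of epithelial to mesenchymal transition and a latency close to the median of their group. Doses are not given in the labels, and the compounds are compared at those the study used, which it describes as alike in glycemic response.

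Library size, recovered from the steps between RPKM values, ran from 26.6 M to 51.9 M reads per tumor (M, reads in units of 1000000), with a median of 35.4 M with X10 and 44.0 M with vehicle. Marker genes of mesenchymal cells summed to between 5429 and 39476 RPKM per tumor, while those of mammary epithelium ran from 13.7 to 7216, with Krt5 at 0 in at least 1 glargine and 1 IGF1 tumor. The median of the 10 epithelial markers was 379 RPKM with vehicle and 146 with IGF1, and that of the 8 mesenchymal markers 21048 and 14270. Marker lists of other tissues also varied, skeletal muscle from 3.48 to 5243 RPKM, adipocytes from 2.05 to 249 and leukocytes from 602 to 2027. Since these are bulk samples, fewer cells of a type and less RNA per cell cannot be told apart. The tumors least like the rest by mean rank correlation were X10_105 (0.865), Untreated_174 (0.876) and Untreated_161 (0.897), and leaving these 3 out changed none of the counts of synthetase genes below by more than 1.5 times.

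Aminoacyl-tRNA synthetases join each amino acid to its tRNA and so feed the ribosome. The cytosol and the mitochondrion mostly use separate enzymes, both encoded in the nucleus, except that single genes for the lysine and glycine enzymes (Kars and Gars) serve both compartments. Among cytosolic enzymes, 8 (Dars, Eprs, Iars, Kars, Lars, Mars, Qars, Rars) sit in the multisynthetase complex. Several cytosolic synthetase genes are known targets of the transcription factor ATF4, which is made when amino acids run short or the endoplasmic reticulum is stressed, and Wars, the tryptophan enzyme, is a known interferon-induced gene.

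Promoter windows from RefSeq (GRCm38.p6, 250 bases before to 50 after a transcription start) matched 27 of the 36 genes. The ATF4 letters TGATGNAA, sought on both strands, were present in 5 of these 27 (Aars, Gars, Iars, Tars and Yars, all cytosolic), against 4.51% of all 27025 genes with a window. The 4 windows shown are those with the smallest p in the comparison with the ATF4 target score described further on. They are printed from 120 bases before to 20 after the start, on the strand of the gene, with the ATF4 letters in capitals. In Gars, Tars and Aars they lie on the other strand, so that the capitals are the reverse complement.
Yars promoter, chr4:129189783-129189922, plus strand: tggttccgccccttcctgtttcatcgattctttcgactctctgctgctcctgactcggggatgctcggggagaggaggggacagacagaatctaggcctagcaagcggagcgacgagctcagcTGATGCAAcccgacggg
Gars promoter, chr6:55037881-55038020, plus strand: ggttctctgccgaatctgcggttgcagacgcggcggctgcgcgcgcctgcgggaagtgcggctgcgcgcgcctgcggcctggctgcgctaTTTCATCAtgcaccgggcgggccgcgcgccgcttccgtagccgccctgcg
Tars promoter, chr15:11399639-11399778, minus strand: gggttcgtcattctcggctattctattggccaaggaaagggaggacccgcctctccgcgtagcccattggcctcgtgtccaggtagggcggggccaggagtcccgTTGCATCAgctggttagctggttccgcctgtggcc
Aars promoter, chr8:111033722-111033861, plus strand: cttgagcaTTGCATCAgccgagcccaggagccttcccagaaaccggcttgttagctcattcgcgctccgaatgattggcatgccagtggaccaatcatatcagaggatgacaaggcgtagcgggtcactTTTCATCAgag

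The letters lay 30 bases before the start in Gars, 15 before it in Tars and 4 after it in Yars, and in Aars they occurred 2 times, at 112 before and 10 after. Other motifs were the MYC letters CACGTG in Aars, Ears2, Farsb, Iars and Tars (8.09% of all genes), the NRF1 motif in Farsb, Iars2, Kars, Mars2 and Tars (5.19%) and the interferon regulatory factor motif in Qars (3.99%). A match describes the sequence and was not tested as a binding site.

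Cytosolic synthetase genes had higher expression levels than mitochondrial ones. Over the 50 tumors the median RPKM of the cytosolic genes ranged from 24.3 (Farsb, the beta chain of the phenylalanine enzyme) to 290 (Aars, the alanine enzyme), with a median of 70.3, while the mitochondrial genes ranged from 2.44 (Mars2, the methionine enzyme) to 149 (Lars2, the leucine enzyme), with a median of 10.9. After Aars the highest cytosolic genes were Rars (arginine, 175), Qars (glutamine, 157.7) and Vars (valine, 127), and besides Farsb the lowest were Lars (leucine, 31.4), Wars (tryptophan, 32.1) and Mars (methionine, 34.4). After Lars2 the mitochondrial order was Rars2 (29.9), Hars2 (histidine, 25.8) and Iars2 (isoleucine, 21.1), and the low end held Ears2 (glutamate, 2.68), Aars2 (3.72) and Sars2 (serine, 4.32) above Mars2. The lowest read count behind any of these values was 77 (Mars2 in IGF1_160). Lars2 (70.1 to 393 RPKM) stood apart from the next mitochondrial gene, Rars2 (20.0 to 44.8), and their ranges did not overlap.

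**Figure D1:**
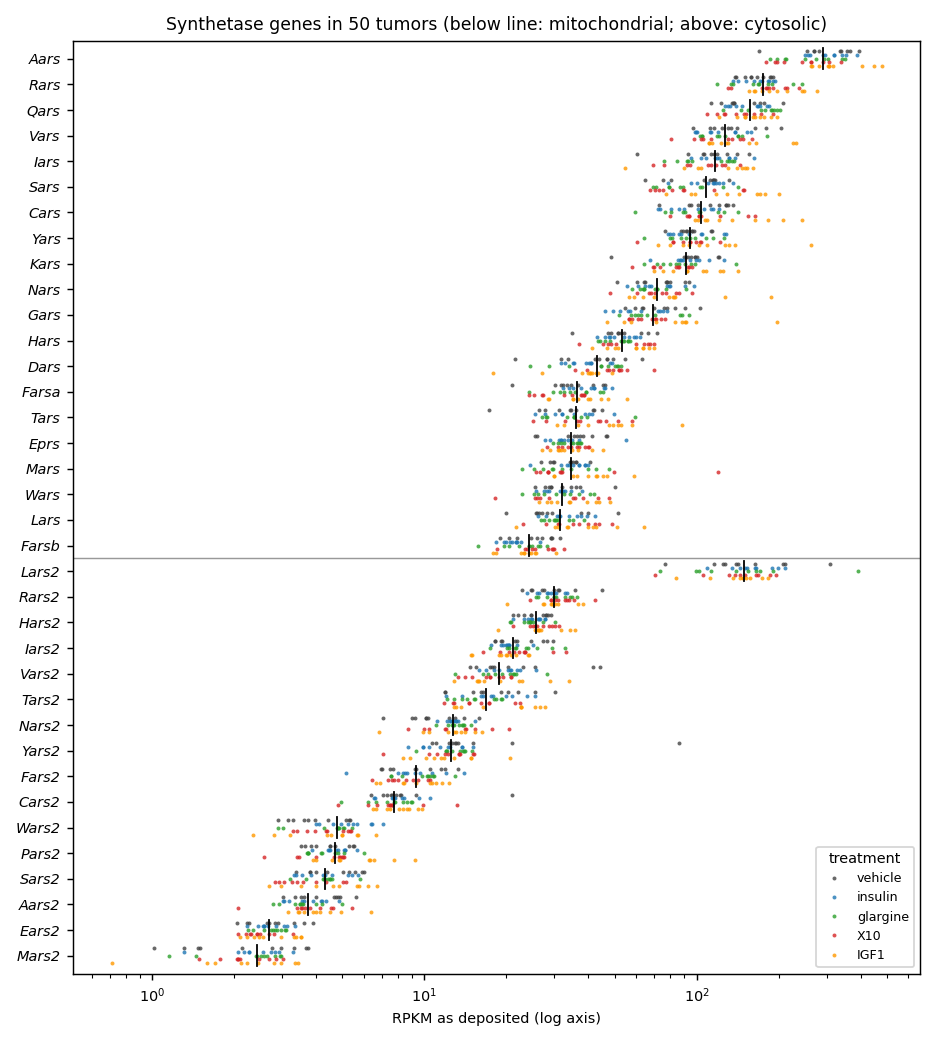
RPKM of the 36 synthetase genes (log axis) in every tumor, one point per tumor colored by treatment, with a black bar at the median of the 50 tumors. Aars is highest at 290 and Mars2 lowest at 2.44, Lars2 stands above the other mitochondrial genes at 149, and single points stand far to the right for Yars2, Mars and Cars2.

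This order depends on the gene length used for RPKM. The lengths behind the deposited values, recovered from the steps between them, were short for some genes, for example 807 bases for Aars, 572 for Cars and 621 for Qars, whereas their transcripts with the longest coding sequence in GENCODE have 5750, 3222 and 2800 bases. Per kilobase of those transcripts the cytosolic median was 37.9 RPKM and the mitochondrial one 6.05, with Sars (serine) highest at 170 and Lars2 at 149, and Aars fell to 40.8. The difference between the classes was present on both scales, while the rank of single genes was not kept. For genes of low RPKM the length also bears on differences between tumors, since it sets how far the 0.5 added before taking logs shrinks them.

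The median spread of synthetase genes between tumors was smaller than that of all genes tested. The SD of log2(RPKM + 0.5) had a median of 0.33 for cytosolic and 0.29 for mitochondrial genes, against 0.42 for all genes tested. All genes tested had a median level of 9.31 RPKM, below the 70.3 of the cytosolic genes. Genes were not matched by level for this comparison. The steadiest were Hars2 (SD 0.18, from 18.7 to 35.8 RPKM), Ears2 (0.20, from 2.04 to 3.90) and Rars2 (0.21, from 20.0 to 44.8). Most variable were Yars2, the mitochondrial tyrosine enzyme (0.48, from 7.07 to 86.1 RPKM), Lars2 (0.46, from 70.1 to 393), Sars (0.40, from 64.8 to 201), Tars, the threonine enzyme (0.40, from 17.2 to 88.3) and Mars2 (0.40, from 0.711 to 3.74). Single tumors set several of these ranges. IGF1_158 had the highest value of all 50 tumors for 9 genes, 8 of them cytosolic (Aars, Cars, Gars, Lars, Nars, Rars, Tars, Yars), and for 6.12% of all coding genes tested. IGF1_160 had the lowest for 6 of the 36 genes (Dars, Iars, Mars2, Nars2, Rars2, Wars2) and for 13.9% of all coding genes, and X10_100 for 7 of the 36 and for 6.41%.

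The first question was whether chronic treatment with insulin, its analogues or IGF1 changed synthetase gene expression. No synthetase gene reached an adjusted p below 0.05 (limma across all 16733 genes, Benjamini-Hochberg adjustment) in any of the 6 comparisons. In the same fits the share of all genes called was 0% against vehicle with insulin and also 0% with glargine, and it was 0.0657% with X10 and 0.00598% with IGF1. It was 0.155% for X10 and IGF1 against the other 3 groups and 0.102% for any difference between the 5 groups. All 4 comparisons with vehicle share the same 10 vehicle tumors. At an unadjusted p below 0.05 there were 3 synthetase genes with insulin (11.1% of all genes), 2 with glargine (6.23%), 4 with X10 (11.0%), 6 with IGF1 (8.84%), 4 for X10 and IGF1 together (10.5%) and 6 for any difference (13.1%). The limma voom fit on recovered reads called none either.

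Summed over the 20 cytosolic genes, expression had a median of 1712 RPKM with vehicle (from 1534 to 2017), 1731 with insulin (1508 to 1930), 1725 with glargine (1393 to 1973), 1689 with X10 (1306 to 2008) and 2033 with IGF1 (1615 to 2815). The IGF1 tumors reached higher, with IGF1_158 at the top, but their range overlapped that of every other group. The 16 mitochondrial genes summed to medians of 328, 337, 326, 323 and 318 RPKM in the same order of groups. Cytosolic over mitochondrial sums had a median of 6.07 with IGF1 (from 5.00 to 7.81) and 5.14 with vehicle (from 3.21 to 6.94). These sums weight each gene by its deposited RPKM, and so by the gene lengths described above. Lars2 alone had a median of 149 RPKM. The lowest vehicle ratio was that of Untreated_197, where Yars2 was at 86.1 RPKM. The lowest of all 50 tumors was 2.495 in glargine_70, where Lars2 was at 393 RPKM.

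With IGF1 against vehicle, 17 of the 20 cytosolic genes had a log2 difference above 0, with a median of 0.15, and 8 of the 16 mitochondrial genes, with a median of -0.00 (0.02 after quantile scaling), whereas 53.4% of all genes were above 0, with a median of 0.02. Without IGF1_158 the cytosolic median was 0.10. Tars had 17.2, 34.4 and 44.8 RPKM (lowest, median and highest of 10) with vehicle and 30.7, 48.3 and 88.3 with IGF1. Its values overlapped between the groups, with a log2 difference of 0.51 (standard error 0.16, 95% interval from 0.18 to 0.84, adjusted p = 0.344, limma), a 1.43-fold higher mean on this scale. Leaving out each tumor in turn gave differences from 0.41 (without IGF1_158) to 0.58. Sars had 64.8, 113.3 and 131.7 RPKM with vehicle and 77.4, 135.9 and 201 with IGF1, a log2 difference of 0.39 (standard error 0.16, adjusted p = 0.457), and Pars2, the mitochondrial proline enzyme, 3.53, 4.501 and 5.54 against 3.89, 5.59 and 9.26, a difference of 0.31 (standard error 0.12, adjusted p = 0.426). Also at an unadjusted p below 0.05 were Cars, the cysteine enzyme (0.35), Lars (0.31) and Rars (0.27). Without IGF1_158 the genes below this p were 2 in place of 6, Tars (0.41) and Sars (0.34). Of the 10 epithelial markers 7 were at an unadjusted p below 0.05, all on the lower side with IGF1 (median log2 difference -2.22 over the 10, 0 called by limma), and their part in these values was not tested. In the other direction the smallest p were those of Yars2 (-0.40, adjusted p = 0.497), Iars2 (-0.19) and Farsb (-0.13).

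The 8 members of the multisynthetase complex had a median log2 difference that was 0.10 with IGF1 and between -0.02 and 0.04 with insulin, glargine and X10, with 2 of 8 (Lars, Rars) at an unadjusted p below 0.05 with IGF1 (8.84% of all genes), 1 of 8 (Qars) with glargine (6.23%) and none with insulin or X10. Every one of them had an adjusted p above 0.4 in these 4 comparisons.

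Insulin, glargine and X10 gave small differences in either direction. The cytosolic and mitochondrial medians were 0.01 and -0.02 with insulin, -0.06 and -0.05 with glargine and -0.04 and -0.11 with X10, where they were 0.03 and -0.06 with quantile and 0.02 and -0.06 with upper quartile scaling. The cytosolic median with insulin was 0.05 with quantile scaling and -0.01 without Untreated_197. Above 0 were 17 of the 36 genes with insulin (54.5% of all genes), 11 with glargine (54.1%) and 13 with X10 (44.4%). With insulin the smallest p were those of Wars2, the mitochondrial tryptophan enzyme (0.37, standard error 0.14, adjusted p = 0.346), Nars2 (asparagine, 0.23) and Farsa (phenylalanine, 0.22) above vehicle and of Farsb (-0.25), Yars2 (-0.46) and Gars (-0.25) below it. Farsb had 19.0, 26.5 and 31.6 RPKM with vehicle and 18.4, 21.3 and 26.6 with insulin, so that the groups overlapped. With glargine they were Qars (0.22, adjusted p = 0.789), Nars2 (0.26) and Wars2 (0.13), and Yars2 (-0.32), Aars2 (-0.19) and Aars (-0.21). With X10 they were Nars2 (0.26, adjusted p = 0.449), Tars (0.26, or 0.16 without Untreated_174) and Lars (0.22), and Sars2 (-0.29), Vars2 (valine, -0.36) and Aars (-0.28). The size of the Yars2 differences in all 4 comparisons with vehicle rested on 1 vehicle tumor, Untreated_197, at 86.1 RPKM beside 10.6 to 21.1 in the other 9. Without it they stayed below 0 and were -0.19 with insulin, -0.06 with glargine, -0.13 with X10 and -0.13 with IGF1.

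X10 and IGF1, the compounds with high affinity for the IGF1 receptor, were also compared as 1 set with the other 3 groups (20 against 30 tumors). The smallest p were those of Tars (0.32, standard error 0.11, adjusted p = 0.197), Cars (0.30, standard error 0.10, adjusted p = 0.200) and Rars (0.18) above and Vars2 (-0.16), Sars2 (-0.10) and Yars2 (-0.14, or -0.05 without Untreated_197) below. Cars had medians of 116.4, 95.6, 96.2, 102 and 127.96 RPKM with vehicle, insulin, glargine, X10 and IGF1, and its range with IGF1 (98.7 to 244) overlapped that with vehicle (72.7 to 135.9). The median was 0.09 for cytosolic (14 of 20 above 0) and -0.05 for mitochondrial genes (6 of 16 above 0, with a median of 0.02 after quantile scaling), and that of all genes -0.02 (43.6% above 0). Without IGF1_158 the cytosolic median was 0.05. For any difference between the 5 groups Cars had the smallest p (adjusted p = 0.209).

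**Figure D2:**
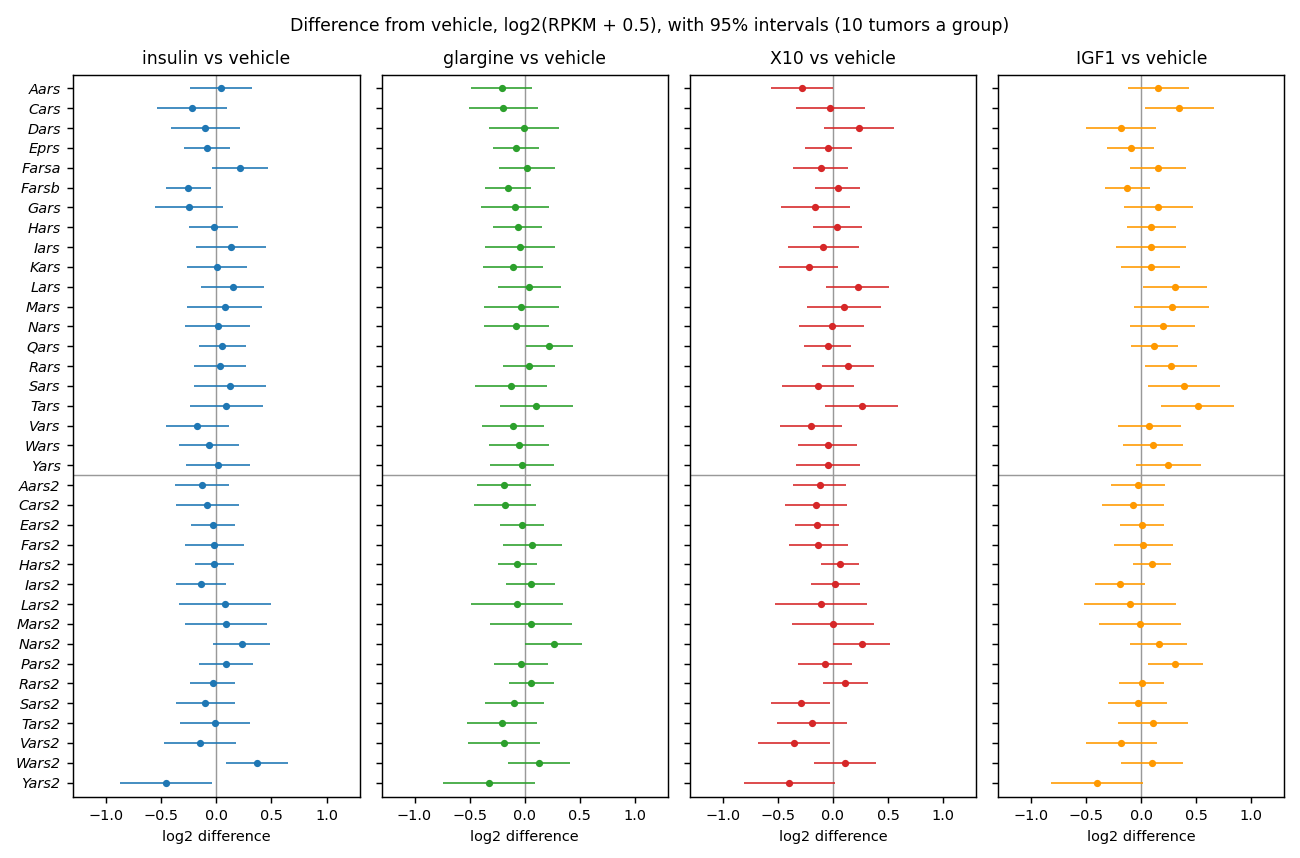
Log2 difference from vehicle of each synthetase gene in the 4 treated groups, with 95% intervals from limma (10 tumors a group, not adjusted for multiple tests). Most intervals include 0. With IGF1, 17 of the 20 cytosolic genes lie to the right of 0, and Tars lies farthest at 0.51.

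The second question was how synthetase genes moved between tumors of the same treatment. To this end 5 scores were made, each the mean z-score over a list of known genes of a programme that holds no synthetase, scaled to an SD of 1 over the 50 tumors, and each gene's log2 change per SD of score was fitted beside treatment.

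With the score of 24 ATF4 targets, 6 cytosolic synthetase genes rose, and no mitochondrial one did. The list holds Asns, Psat1, Phgdh, Chac1, Trib3 and others. Of the 16709 genes outside the list, 28 (0.168%) were called higher with this score, and these 6 were among the 28. They were Nars (asparagine), with a log2 rise of 0.26 per SD (standard error 0.04, adjusted p = 1.26e-05, limma), Yars (tyrosine, 0.25, adjusted p = 2.22e-05), Cars (0.26, adjusted p = 0.000148), Gars (0.25, adjusted p = 0.00029), Tars (0.24, adjusted p = 0.00666) and Lars (0.20, adjusted p = 0.0193). Of the other members of the class, Aars (0.17, adjusted p = 0.0926), Sars (0.17), Rars (0.12), Eprs (glutamate and proline, 0.10) and Mars (0.15) had an unadjusted p below 0.05 only (9.74% of all genes were below it), while 5 of the 20 were on the other side of 0, Qars (-0.07), Farsa (-0.05), Dars (-0.03), Farsb (-0.02) and Wars (-0.01). The cytosolic median was 0.11, the mitochondrial one 0.02 and that of all genes -0.01. Among mitochondrial genes Ears2 had the smallest p (0.08, adjusted p = 0.445). No test of the difference between the classes was made.

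The 3 called genes that have a promoter window (Gars, Tars and Yars) all hold the ATF4 letters shown above. Aars and Iars hold them too, and Iars had a log2 value of 0.05 per SD (adjusted p = 0.836).

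Far out on this score lay 2 IGF1 tumors, IGF1_158 at 4.32 SD and IFG1_132 (so spelled in its label) at 2.43, with the other 48 between -1.42 and 1.54. In IGF1_158 Yars was at 262 RPKM, against medians of 94.1 with vehicle, 90.6 with insulin, 93.2 with glargine, 94.7 with X10 and 105.5 with IGF1, and Gars was at 198, against medians of 72.8, 59.7, 64.1, 65.4 and 85.7. Nars was at 188 there, against medians of 77.4, 73.2, 67.2, 72.6 and 80.6. These are the highest values of the 3 genes. Without IGF1_158 only 3 synthetase genes were called, Cars (0.22 per SD, adjusted p = 0.00523), Nars (0.18, adjusted p = 0.0139) and Yars (0.17, adjusted p = 0.0357), among 7 genes called higher in all, while Gars, Tars and Lars stayed above 0 (0.16, 0.18 and 0.15) with adjusted p of 0.168, 0.168 and 0.264.

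Over the 50 tumors Pearson's r with the ATF4 target score was 0.764 for Nars, 0.766 for Yars, 0.732 for Cars and 0.712 for Gars, and Spearman's rho was 0.584, 0.660, 0.691 and 0.569. Each r had a permutation p of 1e-05, the smallest that 100000 permutations can give, and rho a permutation p of at most 4e-05. With IGF1_158 and IFG1_132 left out, r was 0.530, 0.579, 0.613 and 0.510. The call of Gars did rest on IGF1_158, as given above. In all, 180 relations of a synthetase gene with a score were fitted, and calls were made over all genes. The muscle, adipocyte, leukocyte, epithelial and mesenchymal marker scores had r of -0.00, -0.28, -0.15, -0.18 and -0.22 with the ATF4 target score, and with the first 3 as covariates 6 synthetase genes were called.

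**Figure D3:**
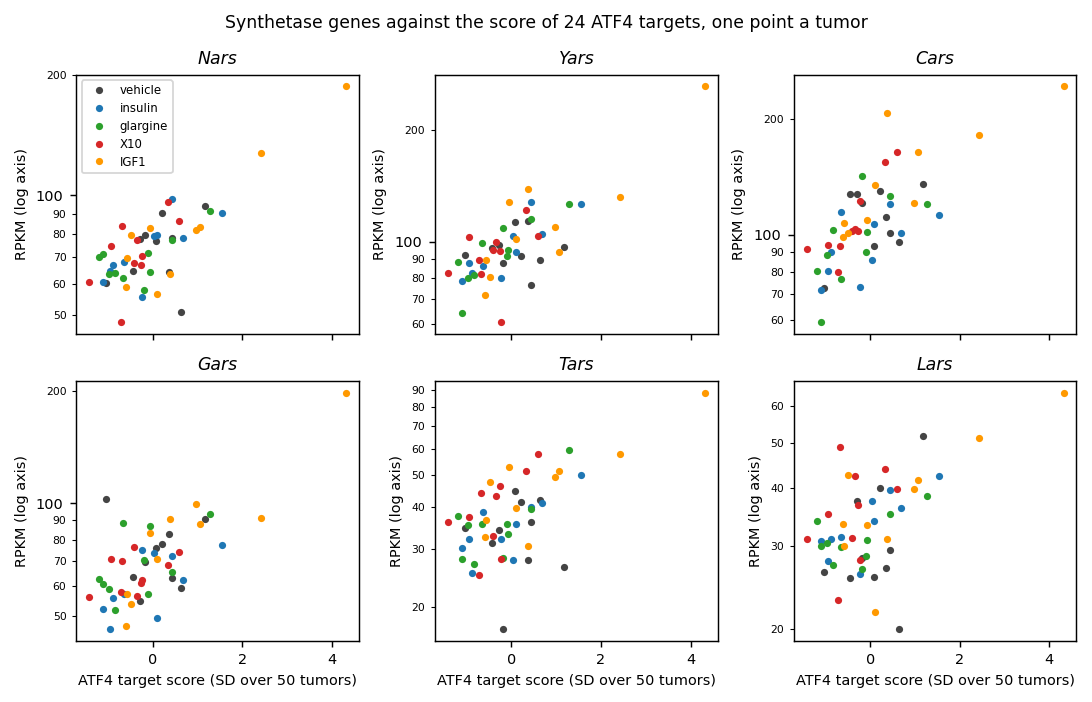
RPKM (log axis) of the 6 synthetase genes called with the ATF4 target score against that score in SD over the 50 tumors, one point per tumor colored by treatment. The 2 IGF1 tumors at 4.32 and 2.43 stand at the right, apart from the other 48 between -1.42 and 1.54.

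With the score of 24 proliferation genes 10 synthetase genes rose, and 20.2% of all genes did, so that a rise with this score was common in the whole table. They were 7 cytosolic genes (Iars, Dars, Farsb, Tars, Rars, Hars, Farsa) and 3 mitochondrial ones (Mars2, Wars2, Rars2). Iars rose by 0.26 per SD (standard error 0.03, adjusted p = 9.61e-08, r = 0.734, permutation p = 1e-05), Mars2 by 0.26 (standard error 0.05, adjusted p = 4.06e-05, r = 0.651), Wars2 by 0.17 (adjusted p = 0.000719, r = 0.518) and Dars, the aspartate enzyme, by 0.18 (adjusted p = 0.00144, r = 0.498). With the mean of a gene's own chromosome as a covariate Wars2 (0.10, adjusted p = 0.0904) and Dars (0.10, adjusted p = 0.057) were not called. Without the 2 tumors farthest out on this score (IGF1_160 and X10_100) r was 0.644, 0.545, 0.418 and 0.389. Iars and Mars2 were each lowest in IGF1_160, at 54.5 and 0.711 RPKM against medians of 117 and 2.44, and that tumor had the lowest proliferation score (-2.99 SD). Cars, high with the ATF4 target score, was on the other side of 0 here (-0.08, adjusted p = 0.253). The epithelial marker score had an r of -0.405 with the proliferation score, and 6 of the 10 epithelial markers (Cldn3, Cldn4, Cldn7, Epcam, Krt14, Krt19) fell with it (median -0.71 per SD over the 10). Their part in the result was not tested.

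With the score of 20 ribosome biogenesis genes 7 cytosolic genes rose and no mitochondrial one (6.65% of all genes were called higher). This score had an r of -0.35 with the leukocyte marker score, and with the muscle, adipocyte and leukocyte scores as covariates 6 synthetase genes were called in place of 7, Farsb with 0.14 per SD (adjusted p = 0.00113). Farsb rose by 0.15 per SD (standard error 0.03, adjusted p = 0.000205, r = 0.580), Rars by 0.16 (adjusted p = 0.000469, r = 0.618), Hars, the histidine enzyme, by 0.13 (adjusted p = 0.0046, r = 0.558) and Farsa by 0.14 (adjusted p = 0.00852, r = 0.50), followed by Iars, Vars and Kars. Both chains of the phenylalanine enzyme were also called with proliferation, but the 2 scores moved together, with 22 of the 24 proliferation genes called higher with ribosome biogenesis and 14 of the 20 ribosome biogenesis genes with proliferation. Without X10_100 and IGF1_135 r was 0.533, 0.561, 0.60 and 0.341. The mitochondrial gene with the smallest adjusted p was Rars2 (0.09, adjusted p = 0.0548), called in 10 of 50 fits with 1 tumor left out. The median was 0.10 for cytosolic (20 of 20 above 0), 0.06 for mitochondrial (14 of 16 above 0) and 0.02 for all genes. The difference between the classes was not tested.

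The score of mitochondrial translation, made of 25 genes of the mitochondrial ribosome and its factors, went with synthetase genes of both classes. It had an r of -0.34 with the mesenchymal marker score, whose part was not tested. The score also moved with the 2 before it. Of the 24 proliferation genes 13 were called higher with it, and 6 of its 25 genes were called higher with ribosome biogenesis. In all 9 genes rose with it, 5 cytosolic (Farsb, Sars, Mars, Hars, Vars) and 4 mitochondrial (Fars2, Sars2, Cars2, Tars2), against 7.55% of all genes. Farsb rose by 0.14 per SD (standard error 0.03, adjusted p = 0.0045, r = 0.562), Fars2, the mitochondrial phenylalanine enzyme, by 0.15 (adjusted p = 0.0165, r = 0.467), Sars2 by 0.15 (adjusted p = 0.0169, r = 0.506) and Sars by 0.18 (adjusted p = 0.0199, r = 0.426). With upper quartile scaling Fars2 (0.12, adjusted p = 0.0824) and Sars (0.16, adjusted p = 0.0618) were not called. Without IFG1_132 and IGF1_135 r was 0.549, 0.456, 0.431 and 0.327. The count fell to 3 with upper quartile scaling and to 5 without X10_95, the tumor in which Mars and its neighbour Tsfm, a gene of this list, were both highest. The share of all genes called in these fits is not given here. With each of the 50 tumors left out in turn, Vars was called in 15 of 50 fits and Tars2 in 22, so that these 2 calls were lost in most of them.

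No synthetase gene was called with the score of interferon-stimulated genes, with which 11.5% of all genes were called, and 1 was at an unadjusted p below 0.05, as against 23.8% of all genes. That gene was Wars, with a log2 value of 0.11 per SD (standard error 0.04, 95% interval from 0.03 to 0.20, adjusted p = 0.0688). Its r was 0.381 and rho 0.309 (permutation p of 0.0064 and 0.029), and r was 0.332 without Untreated_186 and IGF1_136. Wars values overlapped between all treatments, with medians of 30.7 RPKM with vehicle, 31.9 with insulin, 31.6 with glargine, 31.9 with X10 and 34.1 with IGF1. Next were Tars2 (-0.08, or -0.05 without Untreated_186, r = -0.164), Cars (-0.08, r = -0.139) and Ears2 (0.05, r = 0.272), with adjusted p of 0.352, 0.369 and 0.372. The interferon score had an r of 0.42 with the leukocyte marker score. With the muscle, adipocyte and leukocyte scores as covariates 0 synthetase genes were called, and the value of Wars was 0.14 per SD (adjusted p = 0.127).

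**Figure D4:**
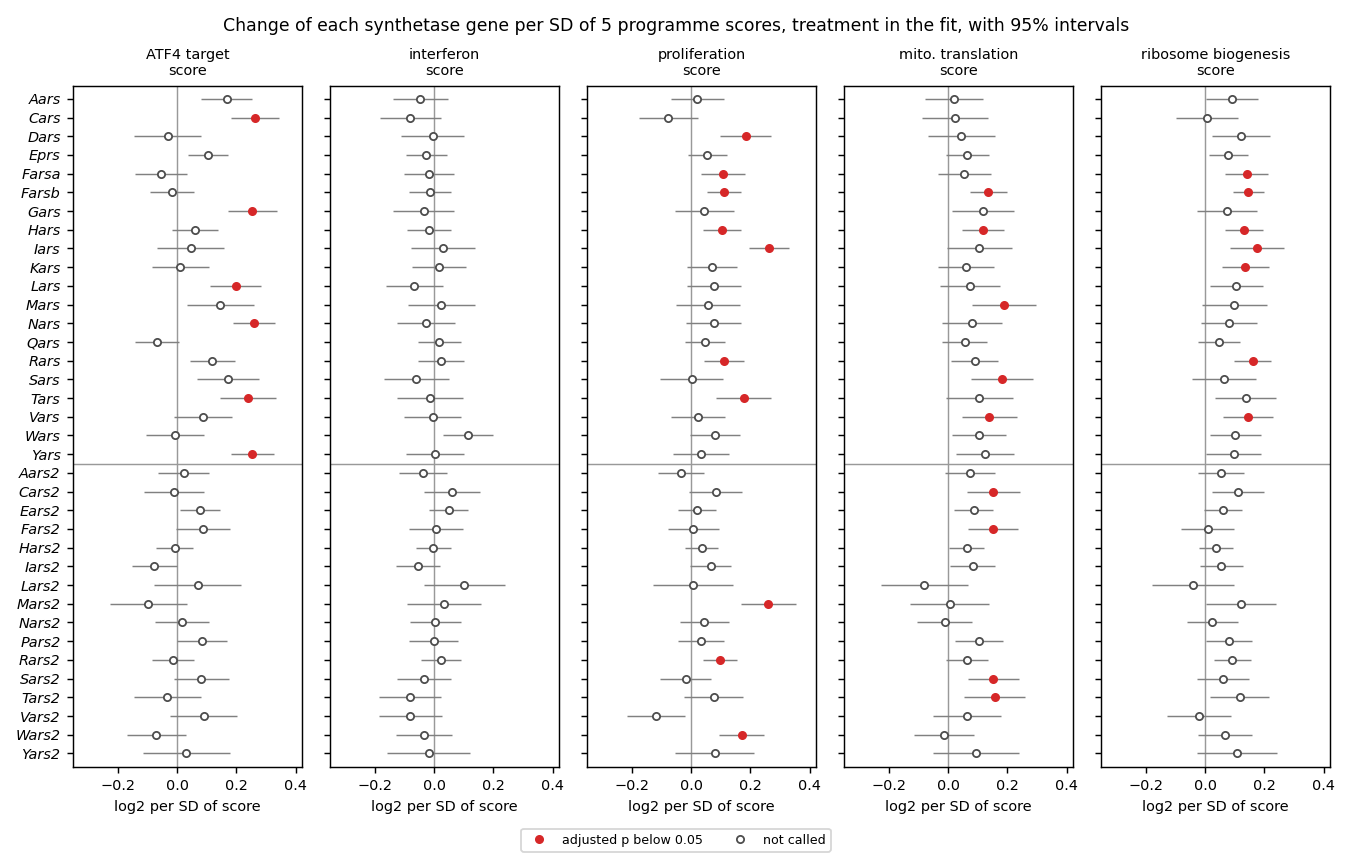
Log2 change per SD of score of each synthetase gene for the 5 scores, with 95% intervals from limma and treatment in the fit, cytosolic genes above the line and mitochondrial genes below it. Red points are the 6, 0, 10, 9 and 7 genes called (adjusted p below 0.05) from left to right, and no mitochondrial gene is red for the ATF4 target, interferon or ribosome biogenesis score.

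Genes that act beside the synthetases were followed through a list of 25, of which 24 were tested and Aarsd1 was below the filter. None was called in any of the 6 treatment comparisons, and at an unadjusted p below 0.05 there were 1 of 24 with insulin (11.1% of all genes), 0 with glargine (6.23%), 3 with X10 (11.0%) and 1 with IGF1 (8.84%). With proliferation 5 of the 24 rose, a share like the 20.2% of all genes called higher with this score, among them the tRNA export factor Xpot (0.20 per SD, adjusted p = 0.00417), the mitochondrial elongation factor Gfm1 (0.25, adjusted p = 3e-07) and Eef1e1, a scaffold protein of the multisynthetase complex (0.25, adjusted p = 0.000382). With ribosome biogenesis 4 rose (6.65% of all genes did), all 3 scaffold genes (Aimp1, Aimp2 and Eef1e1) and Gfm1. With mitochondrial translation 4 of the 20 that are not in that list rose (7.55% of all genes did), Aimp1 (0.14), Aimp2 (0.21, adjusted p = 0.000924), Eef1b2 (0.14) and Eef1d (0.15), the last 2 parts of the factor that recharges elongation factor 1. With the ATF4 target score none was called, and the smallest adjusted p was 0.248.

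Cytosolic synthetase genes varied together to some degree. Over the 50 tumors the mean Pearson's r was 0.237 over the 190 cytosolic pairs (157 above 0), 0.061 over the 120 mitochondrial pairs and 0.080 between the classes, against 0.026 over all pairs of tested genes. With treatment means removed these were 0.226, 0.066, 0.078 and 0.026. The points of each r share the same 50 libraries. The genes most like the mean of the cytosolic class by Spearman's rho were Phgdh (0.724), the first enzyme of serine synthesis and a member of the ATF4 list, Grwd1 (0.710), Chaf1a (0.707), Nop56 (0.698), a nucleolar protein, Cdc25c (0.698), Mthfd2 (0.695), a mitochondrial folate enzyme also in the ATF4 list, and the cell cycle genes Cdc20 (0.683), Cdk1 (0.676) and Racgap1 (0.675), with Phf5a (0.673). For the mitochondrial class they were Hirip3 (0.675), Nop2 (0.624), Hnrnpl (0.593), Itfg2 (0.591), Tamm41 (0.589), Rbm22 (0.586), Gm14276 (0.576), Det1 (0.575), Cdca3 (0.573) and Ddx47 (0.571).

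Position in the genome went with this pattern. For each synthetase gene the 10 coding genes most like it by rho over the 50 tumors were taken, 360 in all, and 269 of them (74.7%) lay on the chromosome of that synthetase gene, which held on average 5.17% of the tested coding genes. For all 13520 tested coding genes the share was 41.2%, so that such likeness by chromosome was common in the table. Within 10 Mb of the synthetase gene lay 93 of the 360. The mean r of a synthetase gene with coding genes of its own chromosome was higher than with those of other chromosomes in 34 of 36 genes (84.5% of all coding genes), with medians of 0.169 and 0.009 (0.119 and 0.024 for all coding genes), and also in 34 with treatment means removed. This pattern was looked for after values had been seen, and no test was made of it.

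Pairs of synthetase genes show the same. The 39 pairs on 1 chromosome had a mean r of 0.350, from -0.338 to 0.850, and the 591 pairs on different chromosomes 0.109. The highest were Lars with Nars (0.850) and Hars with Lars (0.751), all on chromosome 18, and Farsa with Kars (0.730) on chromosome 8, where Aars (chr8:111033144-111057664, plus strand) and Kars (chr8:111993443-112011323, minus strand) lie less than 1 Mb apart with an r of 0.670. On different chromosomes the highest was Yars (chr4:129189760-129219607) with Gars (chr6:55038007-55079500), at 0.726. Cars (chr7:143557230-143600090, minus strand) had 2 of its 10 most alike genes on chromosome 7, with Atf4 itself (rho 0.681), Gdf15 (0.679), Eif4ebp1 (0.647) and Trib3 (0.597) among the 10. Low counts were also those of Mars2 (2 of 10), Nars2 and Vars2 (3 each), and Lars2 and Cars2 had none of 10 on their own chromosome. By mean r, the 2 genes that were not higher on their own chromosome were Nars2 (-0.011 against 0.027) and Cars2 (0.041 against 0.042).

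The counts of called genes were therefore also fitted with the mean of each gene's own chromosome as a covariate, chosen after values had been seen. The ATF4 target score then called 7 synthetase genes (the 6 and Aars), with 0.182% of all genes called higher, and ribosome biogenesis the same 7 as before, with 6.07% called higher. Mitochondrial translation again called 9, with 7.17% called higher, but Farsa and Kars stood in place of Tars2 and Vars. Proliferation called 6 in place of 10, with 12.0% of all genes called higher, and Dars, Hars, Rars2 and Wars2 were no longer called. For the interferon score 1 gene, Sars2, was then called, and it was lower (3.13% of all genes were).

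Yars2, Mars and Cars2 each stood far out in 1 tumor, as did many of their neighbours on the chromosome. Yars2 (chr16:16302965-16309640, plus strand) was at 86.1 RPKM in vehicle tumor Untreated_197, 6.94 times the median of the other 49 tumors. Of its 22 tested coding neighbours within 1 Mb, 18 were also highest in that tumor, where 4.79% of all coding genes had their highest value. They include Dnm1l, a mitochondrial fission gene (72.5 RPKM against a median of 17.2 in the other 49) and the replication gene Mcm4 (113.5 against 21.7), which is in the proliferation list.

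Mars (chr10:127296221-127311786, minus strand) was at 120 RPKM in X10_95, 3.52 times the median of the other 49, and the next X10 tumor was at 49.7. Of its 40 neighbours 27 were highest there (3.30% of all coding genes were), among them the cell cycle kinase gene Cdk4 (1224 RPKM against 214), Ddit3 (111.1 against 26.3), which overlaps Mars on the other strand, and Shmt2 (128.1 against 25.6). Ddit3 and Shmt2 are in the ATF4 list, and without Ddit3 in it 6 synthetase genes were called as before. Cars2 (chr8:11513977-11550783, minus strand) was at 20.9 RPKM in vehicle tumor Untreated_194, beside 9.33 in the next vehicle tumor, and 5 of its 8 neighbours (Carkd, Ing1, Rab20, Ankrd10, Arhgef7) were highest there (1.48% of all coding genes were). Arhgef7 was at 249 RPKM in that tumor against a median of 28.4. No DNA copy number was analysed here, and the cause of these values was not tested.

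Neighbours were also counted for 3 of the 9 synthetase genes that were highest in IGF1_158. Tars, at 88.3 RPKM there, had 0 of 13 neighbours highest in that tumor, Gars 3 of 13 and Yars 8 of 34, while 6.12% of all coding genes were highest in it.

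**Figure D5:**
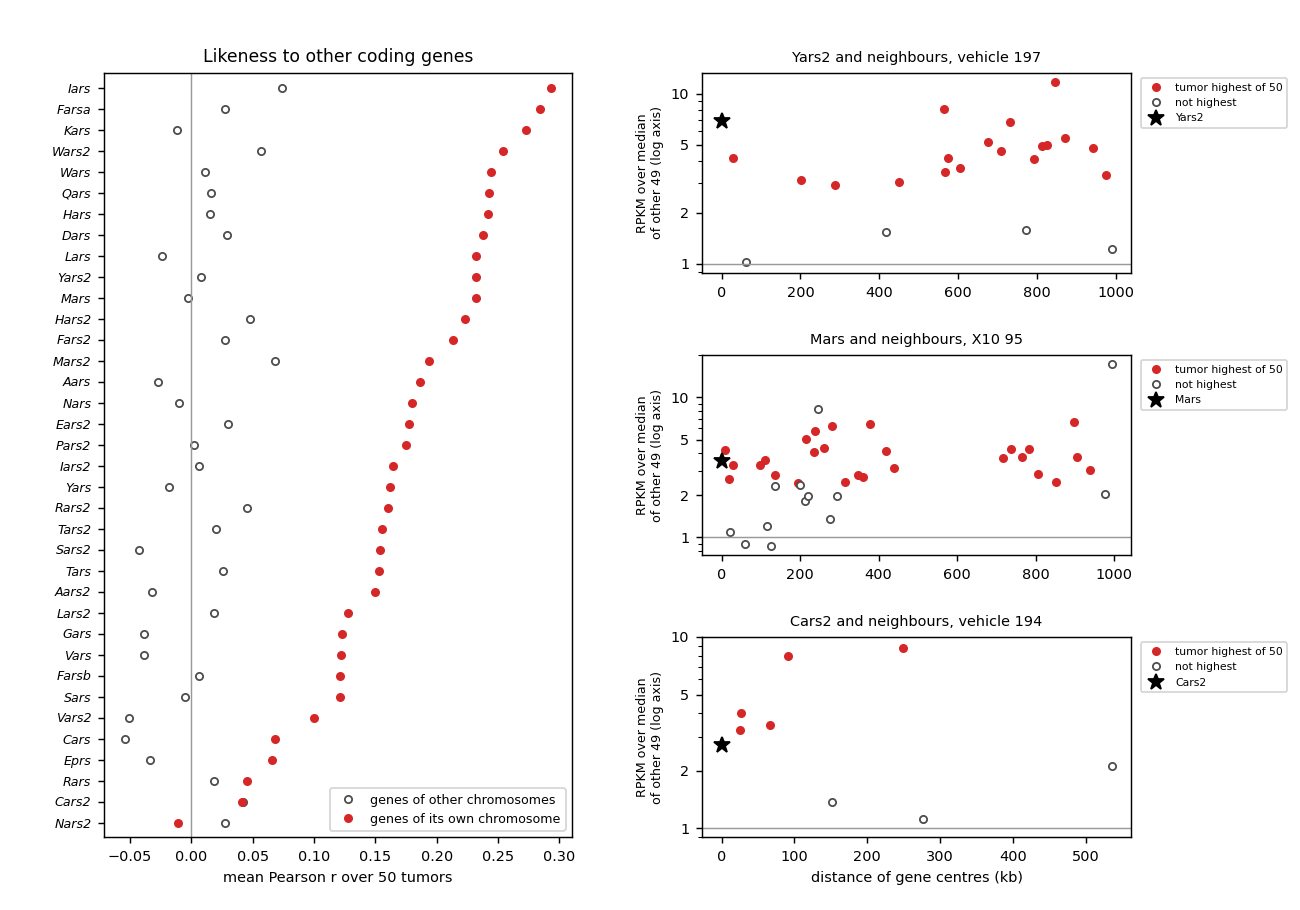
Left, mean Pearson's r of each synthetase gene with tested coding genes of its own chromosome (red) and of other chromosomes (open), over 50 tumors. Right, RPKM over the median of the other 49 tumors (log axis) of Yars2, Mars and Cars2 (stars) and of coding genes within 1 Mb by distance, red where that tumor was the highest of 50; own-chromosome r is higher in 34 of 36 genes, and 18 of 22, 27 of 40 and 5 of 8 neighbours are red.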

How the data were processed

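RNA was measured in 50 mammary gland tumors, 10 in each of 5 treatment groups taken from the sample labels. Per the study's methods, the authors sequenced poly-A RNA on an Ion Proton, aligned reads to GRCm38 with TopHat2 (2.0.10) and Bowtie2, counted them per gene with HTSeq-Count (0.6.1, default options) and deposited RPKM values made with DEXSeq. The RPKM values step by whole reads scaled to 100 M (units of 1000000) per library, from which library sizes were recovered (97.1% of tested genes gave a length; at least 95.4% of low values per tumor were whole within 0.0005 RPKM). The p-values measure the spread between tumors of a group, with 1 tumor per mouse number. Differences between mice, tumor pieces, libraries and read counts all enter this spread and were not separated.

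The 16733 of 37701 genes that averaged 0.5 RPKM or more were tested on log2(RPKM + 0.5) with limma (3.58.1, R 4.3.3; intensity trend, all 5 groups in 1 fit) and Benjamini-Hochberg adjustment over all of them, called below 0.05. Fold changes on this scale understate changes of low genes. Scores were fitted beside treatment, without testing the genes of their own list. Correlations used Python (3.11.15), numpy (2.4.6), scipy (1.17.1), pandas (2.3.3) and 100000 permutations, and plots matplotlib (3.10.9). The scripts were tested on simulated data. Positions are from GENCODE M21 (GRCm38), and promoter windows from RefSeq (GRCm38.p6), in which Mars is listed as Mars1. Pars2, Lars, Rars, Wars, Nars, Hars2, Cars, Hars and Vars had no window.

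Members and lists were chosen with earlier results of these data known. Named genes are the 3 with the smallest p in each direction of a comparison, the 4 with the smallest p for a score, the 4 highest and 4 lowest in level per class, the 5 most and 3 least variable, and the 10 genes most like each class. Others named were chosen after their values were seen. Alternatives were pseudocounts of 0.1 and 1, no filter and a mean RPKM of at least 5, quantile and upper quartile scaling, no trend, marker scores or library size as covariates, voom on recovered reads, only the compared groups, the score alone and a median score. Those added after seeing the data were leaving out 3 tumors or each tumor, the ATF4 list without Ddit3, and the mean of a gene's own chromosome as a covariate.

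Some genes overlap a coding gene on the other strand (Cars2, Ears2, Fars2, Farsb, Hars with Hars2, Iars2, Mars with Ddit3, Wars and Yars) and Aars overlaps Exosc6 on the same strand, so their reads can be hard to separate.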

Additional observations from a re-analysis of the deposited data

Results flagged for a closer look

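In 180 sets of 10 tumors (36 genes in 5 groups), 18 had a highest or lowest tumor with a large gap to the next for the range of the group. The rule was Dixon's criterion, which normally distributed values pass in about 1 of 20 sets. It was applied to RPKM without logs, and the 36 genes share the same libraries, so the count was not tested as an excess. How many of all genes pass the rule was not counted.

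Tumor IGF1_158 stood above its group for Yars (262 RPKM, the next 138), Gars (198, the next 99.4) and Tars (88.3, the next 57.9). Vehicle tumor Untreated_197 was far above its group for Yars2 (86.1, the next 21.1) and below it for Kars (48.4, the next 89.7). For Kars, 6 of 19 coding neighbours within 1 Mb were also lowest in that tumor, where 3.32% of all coding genes had their lowest value. Mars in X10_95 (120, the next 49.7) and Cars2 in Untreated_194 (20.9, the next 9.33) went with high neighbours, as described above. Lars2 reached 393 RPKM in glargine_70 (the next 190), where 3 of 22 neighbours and 0.614% of all coding genes were highest of all tumors.

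Other high tumors were those of Tars in glargine_62 (59.4, the next 39.6), Kars in glargine_78 (139, the next 98.3), Eprs in insulin_13 (55.3, the next 36.9), Wars in Untreated_162 (50.2, the next 37.2), Yars2 in IGF1_145 (20.7, the next 14.9), Nars2 in insulin_13 (15.4, the next 13.3), Farsb in insulin_14 (26.6, the next 22.7) and Sars2 in glargine_47 (5.79, the next 4.57). Low tumors were glargine_47 for Yars2 (9.34, the next 12) and insulin_21 for Mars (24.5, the next 31.8). Of coding neighbours within 1 Mb, those extreme among all 50 in the same tumor and direction were few. They were 0 of 8 for Eprs, 0 of 13 for Tars, 0 of 13 for Nars2, 0 of 3 for Farsb and 0 of 22 for Yars2 in IGF1_145. For Sars2 there were 1 of 47, for Kars 1 of 19 and for Wars 2 of 14. For Yars2 in glargine_47 there were 1 of 22 and for Mars 3 of 40. From 0.814% to 2.37% of all coding genes were so in these tumors. No cause was tested for any of these values.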

How the results depend on the processing

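No paired analysis was possible because replicate numbers are mouse numbers, which no groups share. In the 6 treatment comparisons the count of synthetase genes called was 0 under every alternative and with any 1 tumor left out. With scores, the counts that moved by over 1.5 times were proliferation (6 against 10) and interferon (1 against 0) with the own-chromosome covariate, and mitochondrial translation (3 against 9) with upper quartile scaling. Leaving out each tumor gave 3 to 7 genes for ATF4 targets (3 without IGF1_158), 0 to 1 for interferon (1 without glargine_62, IGF1_135, IGF1_160 or Untreated_182), 9 to 10 for proliferation, 5 to 12 for mitochondrial translation (5 without X10_95, 12 without IGF1_158) and 6 to 9 for ribosome biogenesis. Among these alternatives, calls over all genes are given only for the own-chromosome covariate and, for ATF4 targets, without IGF1_158. Elsewhere a lower count of synthetase genes cannot be told apart from fewer calls in the whole table. Of 658 values of named genes under alternatives other than leaving out each tumor in turn, 651 kept direction and side of the threshold. Another 4 lost the threshold (Wars2 and Dars with proliferation and the own-chromosome covariate, Fars2 and Sars with mitochondrial translation and upper quartile scaling). The last 3 changed sign: Yars2 with X10 and IGF1 (0.0852 with the own-chromosome covariate) and Ears2 with interferon (-0.0196 with quantile scaling, -0.0060 with the own-chromosome covariate). With each tumor left out in turn, the threshold was also lost by Gars with ATF4 targets (limma, adjusted p = 0.168 without IGF1_158). Sars with mitochondrial translation lost it without X10_95 (limma, adjusted p = 0.069). Named differences without a call also moved by over 1.5 times when 1 tumor was left out, for Farsa with insulin to 0.14 (Untreated_197), Wars2 with glargine to 0.08 (Untreated_186), Farsb with IGF1 to -0.08 (IGF1_145) and Sars2 with X10 and IGF1 to -0.06 (IGF1_143). The cause was not tested. Read depth was highest with vehicle and lowest with X10 by group median, and the fewest reads behind a value were 77.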

Other observations

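Lars2, whose median of 149 RPKM exceeded that of all other mitochondrial synthetase genes, had no gene of its own chromosome among its 10 most alike coding genes. Over all gene types, chosen after values had been seen, the genes most like it over the 50 tumors by Spearman's rho were Gm15564 (0.852), Gm23935 (0.699), Gm25911 (0.672) and Gm24270 (0.657), which GENCODE lists as an antisense gene and 3 miRNA genes. Of these, Gm24270 lies on chromosome 9, as Lars2 does.

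The 24 ATF4 targets themselves were not called in any treatment comparison with limma. With IGF1 18 of 24 had a log2 difference above 0 (median 0.21, 53.4% of all genes above 0), with insulin 11 (median -0.04, 54.5%), with glargine 6 (median -0.17, 54.1%) and with X10 6 (median -0.16, 44.4%). At an unadjusted p below 0.05 there were 2 with IGF1 (8.84% of all genes), 3 with insulin (11.1%), 2 with glargine (6.23%) and 1 with X10 (11.0%). These comparisons share the vehicle tumors.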
